A study of Mus musculus with 20 samples.

Results

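The genes of 3 families of pre-mRNA splicing proteins were examined in mouse liver tumors driven by MYC and in control livers: the SR proteins (Srsf genes), the heterogeneous nuclear ribonucleoproteins (Hnrnp genes) and the proteins of the small nuclear ribonucleoproteins (Snrp genes). Members were chosen by gene symbol alone, as every row named Srsf plus a number, Hnrnp plus letters or digits, or Snrp plus letters or digits. This rule gave 44 of the 50559 gene rows, 11 SRSF, 20 HNRNP and 13 SNRP, of which 42 passed a filter of at least 1 CPM (a gene's counts scaled to a fixed library total) in at least 5 libraries. The filter did not use the groups, and 14333 genes passed it in all. Snrpn and Srsf12 did not pass and are described with their families.

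RNA was sequenced from 5 control livers and from 3 sets of 5 tumors, called here sgTrp53 + MYC, FGF19 + MYC and Aldafermin + MYC. Each library came from a different female C57BL/6J mouse. All 3 tumor groups arose after hydrodynamic gene transfer, a rapid injection into the tail vein that brings plasmids into hepatocytes, and all carried a MYC transgene under the EF1a promoter, integrated by the Sleeping Beauty transposase. By the study's methods mice were young adults at the transfer, and the time from it to harvest is not given for each library. The second plasmid encoded human FGF19, an ileal hormone that represses bile acid synthesis, or Aldafermin, an engineered FGF19 analog with a changed N-terminus, or Cas9 with a guide against Trp53 (sgTrp53). The labels call the control livers non treated and of wild-type genotype, the study's methods describe transfer of an RFP plasmid. For the sgTrp53 + MYC tumors the treatment label reads none and the condition comes from the titles. A tumor was 1 snap-frozen nodule, so that tumor and host cells were sequenced together, and a shift in cell makeup and a change in RNA per cell cannot be told apart.

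Introns are removed from pre-mRNA by the spliceosome, whose U1, U2, U4 and U5 particles each carry a ring of Sm proteins (SmB, D1, D2, D3, E, F and G) around a small nuclear RNA. SR proteins bind exonic enhancers through RNA recognition motifs and recruit the spliceosome through domains rich in arginine and serine, whereas hnRNP proteins coat nascent transcripts and often silence the exons they bind. MYC is known to activate several of these genes, among them Srsf1, Hnrnpa1 and Prmt5, whose product methylates Sm proteins. Many SR and hnRNP genes limit their own level through poison exons that send the transcript to decay, and counts per gene do not separate such transcripts from coding ones.

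Between 18004977 and 44427184 reads per library fell on genes in the Aldafermin + MYC, FGF19 + MYC and liver libraries, and between 54042455 and 66354724 in the sgTrp53 + MYC libraries, which stand alone in a second table. Reads that htseq-count called ambiguous made up 3.03% to 6.3% in the former and 11.1% to 14.6% in the latter, so that tumor type and table cannot be told apart. Trp53, the target of the guide, ranged from 18.7 to 79.9 CPM in sgTrp53 + MYC tumors and from 90.8 to 176 CPM in the other tumors, without overlap. Livers held 28.8 to 36.4 CPM, within the range of the sgTrp53 + MYC tumors. Against livers its log2 fold change was 0.51 ± 0.26 (SE, adjusted p = 0.0831, edgeR) in sgTrp53 + MYC tumors. In the tumors with FGF19 or Aldafermin it was 2.08 ± 0.25 (SE). All 10 hepatocyte markers were lower in the 10 tumors with FGF19 or Aldafermin than in livers (median log2 fold change -3.25). Their summed level was 3980 to 29100 CPM in tumors against 183000 to 229000 CPM in livers, and Cyp7a1 was at 0 in at least 1 Aldafermin + MYC tumor. The 6 proliferation genes summed to 792 to 1290 CPM in tumors and 36.9 to 58.1 CPM in livers. Markers of other cells moved too. Summed levels were 51.9 to 178 CPM in tumors and 220 to 357 CPM in livers for 6 endothelial markers (3 lower in the pool, 0 higher), and 56.4 to 305 against 286 to 419 CPM for 6 Kupffer cell and macrophage markers (3 lower, and Cd68 3.70-fold higher). For 6 stellate cell and fibroblast markers they were 61.9 to 982 against 287 to 395 CPM (3 lower, and Col1a1 12.8-fold higher). The 5 cholangiocyte markers summed to 1.81 to 87.6 CPM in tumors and 44.3 to 124 CPM in livers, except in sgTrp53 + MYC 2, at 779 CPM. Without that library sgTrp53 + MYC tumors also gave 36 members changed against livers, where 5092 of 14253 genes were higher and 4650 lower. The 4 erythroid markers summed to 15.1 to 540 CPM in tumors and 127 to 279 CPM in livers, and the 6 lymphocyte markers to at most 4.91 and 7.99 CPM. The part of these shifts in the results below was not tested. Levels are CPM after scaling by the trimmed mean of M values (TMM), and were not compared between genes.

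In 3 libraries, Aldafermin + MYC 5, FGF19 + MYC 1 and sgTrp53 + MYC 1, short genes stood above and long genes below the median of the group. The 1385 genes of shortest exon length (all exons of a gene joined) deviated by a median of 0.51, 0.60 and 0.71 on the log2 scale, and the 1385 of longest exon length by -0.23, -0.29 and -0.40. The SNRP genes of these libraries deviated by a median of 0.62, 0.53 and 0.89, the SRSF genes by 0.21, -0.03 and 0.01 and the HNRNP genes by -0.01, -0.28 and -0.47. Whether a member's deviation follows its own length was not tested. Leaving the 3 libraries out moved the log2 fold changes against livers most in the SNRP genes, by -0.42 to 0.07 in the pool of tumors with FGF19 or Aldafermin and by -0.57 to 0.16 in sgTrp53 + MYC tumors, with Snrpg at the low end of both. The SRSF genes moved by -0.17 to 0.10 and -0.17 to 0.18, and the HNRNP genes by -0.09 to 0.10 and -0.03 to 0.22.

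**Figure D1:**
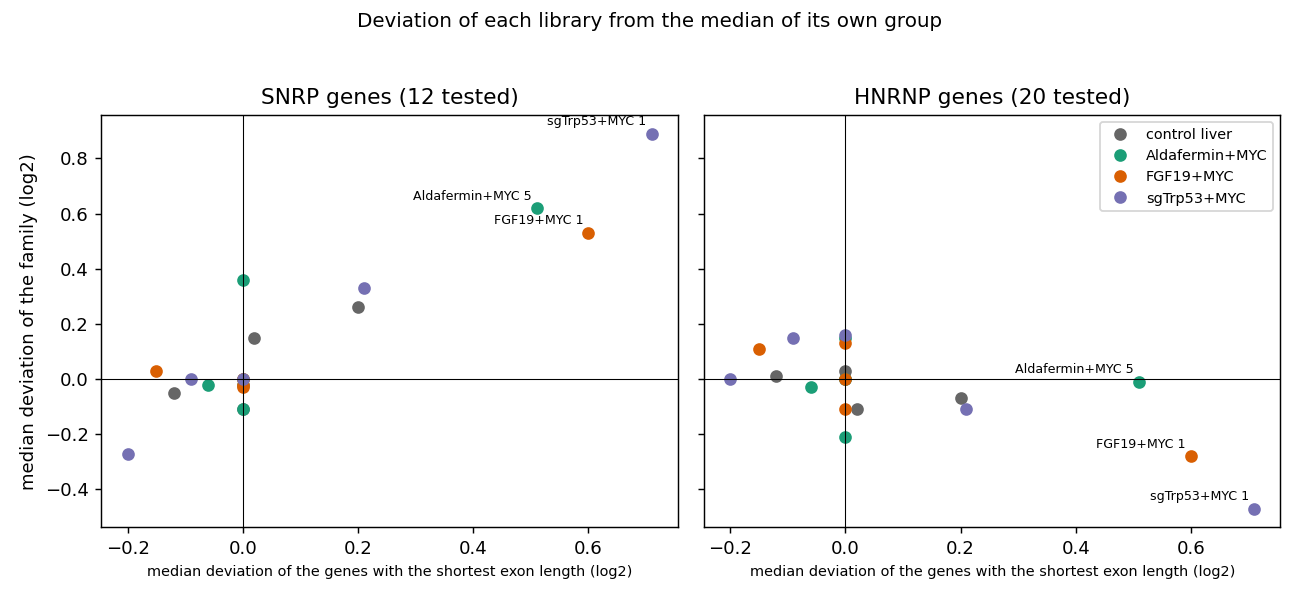
Deviation of each of the 20 libraries from the median of its own group (log2), for the 12 tested SNRP genes (left) and the 20 HNRNP genes (right), against the deviation of the 1385 genes of shortest exon length. The 3 named libraries lie to the right, with SNRP deviations of 0.53 to 0.89 and HNRNP deviations of -0.47 to -0.01.

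The first comparison asked how splicing genes differed between control livers and tumors with FGF19 or Aldafermin, which were pooled as the study's methods do. The pool held 10 libraries and the livers 5. Of 42 members, 36 were higher in tumors, 1 was lower and 5 did not pass the test (edgeR's quasi-likelihood test, adjusted p under 0.05). Of all genes, 39.2% were higher and 34.5% lower. In each of the 36 the lowest tumor lay above the highest liver, as it did for 28.5% of all genes. The median log2 fold change was 1.53 over the members and 0.10 over all genes. The lower member was Srsf5, whose direction turned when libraries were scaled by size alone (from -0.71 to 0.13), and those not called were Srsf4, Hnrnph2, Hnrnph3, Hnrnpul1 and Hnrnpul2. That scaling moved the median of all genes to 0.94 and gave 41 members higher and 0 lower, beside 61.1% of all genes higher and 18.3% lower. Summed over the 44 genes, the level was 3090 ± 161 CPM (SD, n = 5) in livers, 8290 ± 515 CPM (SD, n = 5) in FGF19 + MYC tumors and 8470 ± 1010 CPM (SD, n = 5) in Aldafermin + MYC tumors.

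The same question was put to the sgTrp53 + MYC tumors, which share the control livers. Of the 42 members, 36 were higher, 0 lower and 6 not called. The background was 36.9% of all genes higher and 33% lower, and 28.8% had every tumor above every liver, as all 36 members did. The median was 1.67 over the members and 0.07 over all genes, and the summed level was 9290 ± 678 CPM (SD, n = 5). Library size alone gave 42 members higher here, with a median of 0.95 over all genes, of which 59.5% were higher and 16.9% lower. Without the 3 libraries, the pooled tumors had 39 members above livers and 2 below (41.1% and 37.3% of all genes), and 40 higher and 0 lower in sgTrp53 + MYC tumors (40% and 34.8% of all genes). The summed level of the 44 genes was then 8360 ± 564 CPM in FGF19 + MYC, 8300 ± 1080 CPM in Aldafermin + MYC and 9490 ± 566 CPM in sgTrp53 + MYC tumors (SD, n = 4 each).

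**Figure D2:**
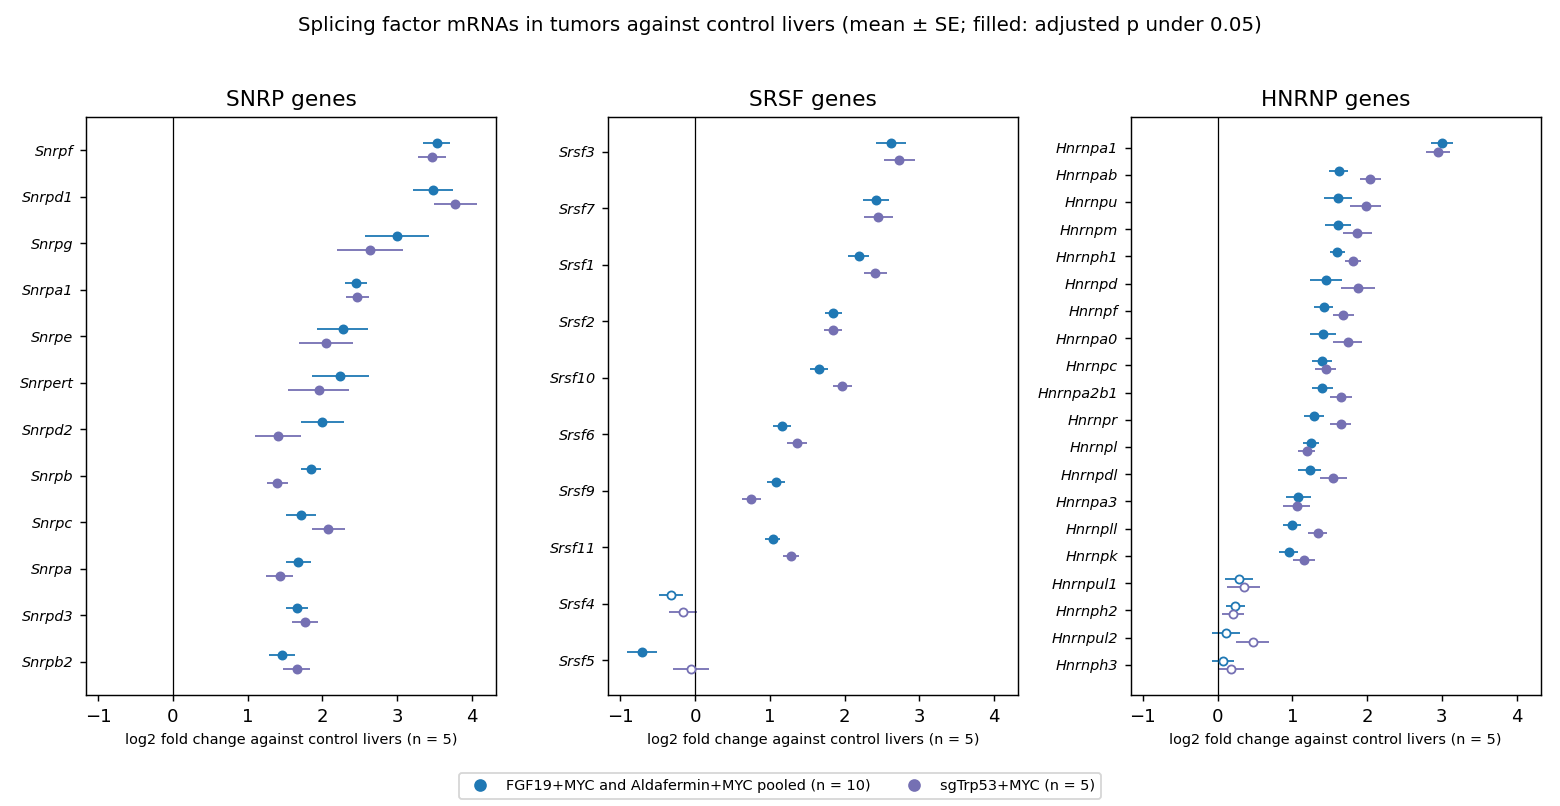
Log2 fold change of the 42 tested genes against 5 control livers, by family, for the pool of tumors with FGF19 or Aldafermin (10 libraries) and sgTrp53 + MYC tumors (5 libraries). Bars are SE and filled points have an adjusted p under 0.05, and all 12 SNRP genes lie between 1.40 and 3.78 while Srsf4, Srsf5 and 4 HNRNP genes lie at or below 0.47.

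**Figure D3:**
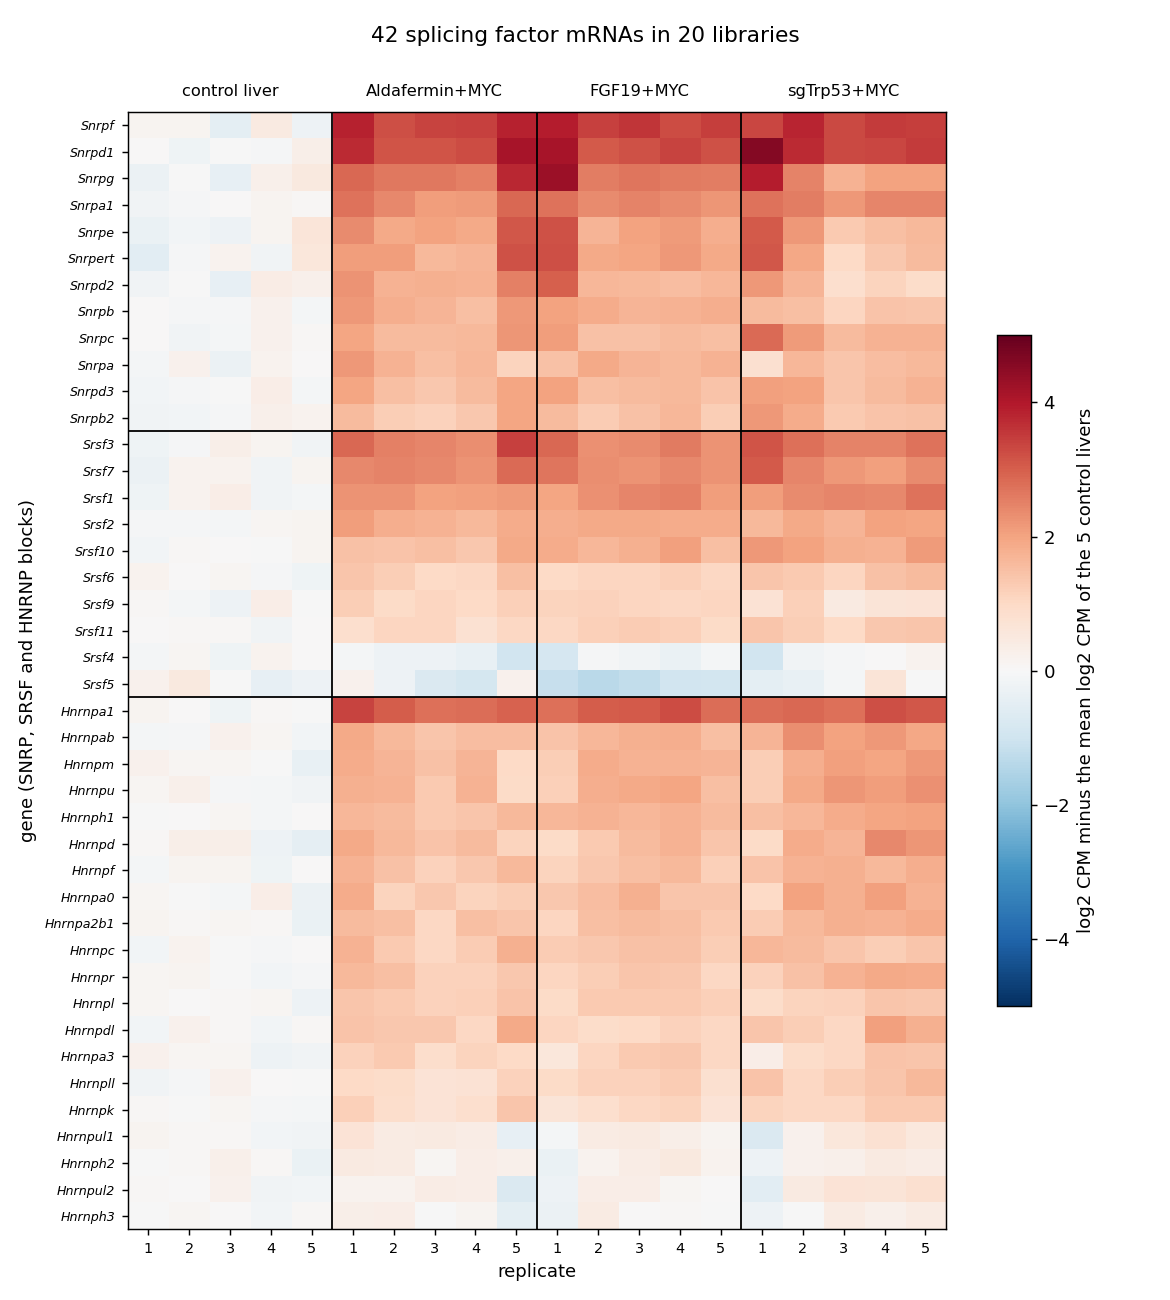
Each of the 42 genes in each of the 20 libraries, as log2 CPM minus the mean log2 CPM of the 5 livers, with rows ordered within the SNRP, SRSF and HNRNP blocks by the fold change of the pooled tumors. The tumor columns are red throughout most rows, and Srsf5 is blue in the 5 FGF19 + MYC columns.

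The windows before the transcription starts of 5 members are shown because MYC and its partner MAX bind the E-box CACGTG. Promoters came from RefSeq (table build GRCm38.p6, 250 bases before to 50 after each start), where 39 of the 44 symbols were found. Snrpa, with a pair of E-boxes, was chosen after its values were seen. Hnrnpd, Snrpf, Hnrnpa1 and Srsf5 belong to the genes named by a rule that uses the fold changes. The 5 windows therefore do not stand for all members. Capitals mark CACGTG, the CCAAT box in either direction (CCAAT or ATTGG) and CCGGAAG or CTTCCGG, a core bound by ETS factors. Of the 250 bases printed for each, Snrpa lies at chr7:27196272-27196521 (minus strand), Hnrnpd at chr5:99978939-99979188 (minus strand), Snrpf at chr10:93589659-93589908 (minus strand), Hnrnpa1 at chr15:103240147-103240396 (plus strand) and Srsf5 at chr12:80945249-80945498 (plus strand).
Snrpa: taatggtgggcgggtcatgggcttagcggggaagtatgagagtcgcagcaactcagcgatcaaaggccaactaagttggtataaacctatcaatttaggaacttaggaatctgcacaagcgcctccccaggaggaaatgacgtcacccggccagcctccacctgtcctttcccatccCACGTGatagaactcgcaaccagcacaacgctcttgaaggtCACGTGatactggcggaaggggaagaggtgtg
Hnrnpd: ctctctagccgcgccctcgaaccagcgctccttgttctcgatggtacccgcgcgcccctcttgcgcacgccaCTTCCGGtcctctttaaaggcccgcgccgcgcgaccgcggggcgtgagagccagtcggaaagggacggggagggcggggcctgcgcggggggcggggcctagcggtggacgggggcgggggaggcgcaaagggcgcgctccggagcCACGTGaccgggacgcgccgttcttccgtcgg
Snrpf: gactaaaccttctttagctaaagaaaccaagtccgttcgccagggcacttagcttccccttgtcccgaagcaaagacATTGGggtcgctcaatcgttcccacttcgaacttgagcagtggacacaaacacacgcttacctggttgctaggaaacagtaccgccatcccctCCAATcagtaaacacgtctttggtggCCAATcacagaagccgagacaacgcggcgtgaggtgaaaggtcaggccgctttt
Hnrnpa1: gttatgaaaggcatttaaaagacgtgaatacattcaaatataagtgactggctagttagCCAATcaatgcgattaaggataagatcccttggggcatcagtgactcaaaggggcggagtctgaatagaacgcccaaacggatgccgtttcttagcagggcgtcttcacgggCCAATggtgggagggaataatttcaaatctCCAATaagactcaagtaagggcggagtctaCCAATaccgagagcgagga
Srsf5: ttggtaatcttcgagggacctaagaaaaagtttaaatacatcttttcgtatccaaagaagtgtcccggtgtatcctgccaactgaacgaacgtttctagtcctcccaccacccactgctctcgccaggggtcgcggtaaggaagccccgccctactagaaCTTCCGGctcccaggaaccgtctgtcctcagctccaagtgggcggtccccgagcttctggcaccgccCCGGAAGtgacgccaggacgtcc
The E-boxes of Snrpa start 73 and 32 bases before the transcription start and that of Hnrnpd 32 bases before. Snrpf has CCAAT 80 and 54 bases before its start, and Hnrnpa1 has it 191, 79, 49 and 19 bases before. These windows of Snrpf, Hnrnpa1 and Srsf5 hold no CACGTG.

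An E-box stood in a 300-base window of 6 of the 39 matched members (15.4%) and of 8.09% of all symbols in the table, and in 7.15% of all windows. The 6 were Hnrnpa3, Hnrnpd, Hnrnpf, Hnrnph2, Hnrnpm and Snrpa. A CCAAT box stood in 21 members (53.8%, against 41.1% of all symbols) and CCGGAAG in 10 (25.6%, against 9.93%). The median log2 fold change of the pooled tumors was 1.44 in the members with CACGTG and 1.60 in those without it. The letters say where a motif is and not whether a factor was bound there.

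All 7 tested genes of the Sm ring were higher in tumors than in livers, with no overlap between groups in either tumor comparison. Of all genes, 39.2% and 36.9% were higher, and 28.5% and 28.8% had every tumor above every liver. The median log2 fold change of the Sm genes was 2.27 in the pooled tumors and 2.05 in sgTrp53 + MYC tumors. Summed, they reached 220 ± 27.6 CPM (SD, n = 5) in livers, 1030 ± 338 CPM (SD, n = 5) in FGF19 + MYC tumors, 1050 ± 272 CPM (SD, n = 5) in Aldafermin + MYC tumors and 887 ± 285 CPM (SD, n = 5) in sgTrp53 + MYC tumors. The medians without the 3 libraries were 1.94 and 1.72, and the sums 883 ± 6.61, 945 ± 167 and 770 ± 130 CPM in the same order of tumors (SD, n = 4 each), with all 7 genes still called higher, beside 41.1% and 40% of all genes.

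Snrpf, which encodes the Sm protein F, stood at 8.97, 8.94, 5.88, 11.1 and 6.85 CPM in the 5 livers. It stood at 117, 76.4, 84.8, 86.3 and 117 CPM in Aldafermin + MYC tumors and at 125, 87.9, 96.4, 78.7 and 89.2 CPM in FGF19 + MYC tumors. In sgTrp53 + MYC tumors it was at 82.1, 115, 80.6, 92.6 and 90.5 CPM. The 3 tumor groups overlapped, and every tumor lay far above every liver. The difference was 11.5-fold in the pooled tumors (log2 fold change 3.53 ± 0.18 SE, adjusted p = 3.2e-12, edgeR) and 11.1-fold in sgTrp53 + MYC tumors (3.47 ± 0.19 SE, adjusted p = 1.1e-11, edgeR). The gene lies on chromosome 10 of GRCm39 at 93418609 to 93425568, and 82.6% of its exonic bases overlap exons of Ccdc38 and another gene on the opposite strand. Reads on 3 copies of 90% identity or more came to 5.8% to 12.8% of its own.

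Snrpd1 encodes the Sm protein D1. The livers held 9.25, 7.81, 9.01, 8.67 and 11.2 CPM, and the Aldafermin + MYC tumors 122, 80.6, 80.3, 87.1 and 160 CPM. FGF19 + MYC tumors held 159, 76.7, 82.8, 95.7 and 82.5 CPM, and sgTrp53 + MYC tumors 222, 121, 90.7, 92.3 and 104 CPM. The 3 libraries in which short genes stood higher gave the highest value of each tumor group. The level was 11.2-fold above livers in the pooled tumors (3.48 ± 0.27 SE, adjusted p = 9.1e-10, edgeR) and 13.7-fold in sgTrp53 + MYC tumors (3.78 ± 0.29 SE, adjusted p = 1.0e-09, edgeR). Without the 3 libraries the log2 fold changes were 3.26 and 3.51.

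Snrpg, for the Sm protein G, was at 16, 19.4, 14.8, 23.7 and 27.9 CPM in livers. The 3 libraries that stood apart held 268, 382 and 301 CPM of it, whereas the other Aldafermin + MYC tumors held 112 to 145, the other FGF19 + MYC tumors 116 to 127 and the other sgTrp53 + MYC tumors 66.3 to 111 CPM. All tumors remained above all livers. The log2 fold change against livers was 3.00 ± 0.43 (SE, adjusted p = 3.1e-06, edgeR) in the pooled tumors and 2.64 ± 0.44 (SE, adjusted p = 3.0e-05, edgeR) in sgTrp53 + MYC tumors, and without the 3 libraries 2.58 and 2.08.

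Snrpe, for the Sm protein E, ranged from 15.3 to 28.6 CPM in livers, from 62.4 to 173 CPM in the pooled tumors and from 46.7 to 161 CPM in sgTrp53 + MYC tumors. It was 4.82-fold and 4.13-fold above livers. Snrpert, which the annotation lists as a processed pseudogene and which was 98.9% identical to Snrpe over the matched stretch, was also higher, with log2 fold changes of 2.24 and 1.95. Over the alternative fits Snrpert ranged from 0.73 to 3.05 in the pooled and from 1.01 to 2.77 in sgTrp53 + MYC tumors. Snrpe ranged from 1.94 to 3.08 and from 1.64 to 2.89. Snrpe was at 1.94 and 1.68 and Snrpert at 1.88 and 1.48 without the 3 libraries. The counts of this pair are uncertain because such reads can be split between them. Snrpd2, Snrpb and Snrpd3, for the Sm proteins D2, B and D3, were 4.01-fold, 3.61-fold and 3.16-fold above livers in the pooled tumors and 2.66-fold, 2.65-fold and 3.41-fold in sgTrp53 + MYC tumors. Their log2 fold changes without the 3 libraries were 1.72, 1.78 and 1.56 in the former and 1.19, 1.39 and 1.72 in the latter. Snrpn, the imprinted neuronal counterpart of Snrpb that shares a transcription unit with Snurf, had 0 reads in all 20 libraries. Before TMM scaling this allows up to 0.167 CPM in the shallowest one (3 counts, counting error only), and the scaling raises the bound in livers. The exons of Snrpn share 13.3% of their bases with genes on the same strand, among them Snurf. Reads on shared bases can be called ambiguous and go uncounted, so the 0 does not show that the transcript was absent. The part of such reads was not tested.

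The 4 SNRP genes specific to the U1 and U2 particles were all higher in both tumor comparisons, beside 39.2% and 36.9% of all genes. The median log2 fold change of the 4 was 1.70 and 1.87 (1.67 and 1.71 without the 3 libraries). Snrpa1, for the U2 protein A', rose most among them, from 12.1 to 15.2 CPM in livers to 58.4 to 102 CPM in the pooled tumors (5.48-fold) and 61.1 to 91.7 CPM in sgTrp53 + MYC tumors (5.54-fold). Snrpa and Snrpc, for the U1 proteins A and C, were 3.20-fold and 3.30-fold higher in the pooled tumors. Snrpb2, for the U2 protein B'', was 2.76-fold higher. In the library sgTrp53 + MYC 1, Snrpc was at its highest (158 CPM) and Snrpa at its lowest of the tumors (76.4 CPM).

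Among the SR genes, 8 of 10 tested were higher in both tumor comparisons, none of these overlapping with livers. Of all genes, 39.2% and 36.9% were higher, and 28.5% and 28.8% had every tumor above every liver. Srsf3, the shortest of the SR proteins and one that also binds export factors, stood at 38.6, 42.2, 54.6, 49.2 and 38.7 CPM in livers. It stood at 324, 252, 243, 223 and 469 CPM in Aldafermin + MYC tumors, at 323, 218, 226, 266 and 211 CPM in FGF19 + MYC tumors and at 396, 297, 247, 249 and 291 CPM in sgTrp53 + MYC tumors. The lowest tumor was thus several times the highest liver. The rise was 6.14-fold in the pooled tumors (2.62 ± 0.20 SE, adjusted p = 5.3e-10, edgeR) and 6.63-fold in sgTrp53 + MYC tumors (2.73 ± 0.21 SE, adjusted p = 1.2e-09, edgeR).

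Srsf1, a regulator of alternative 5′ splice sites and a known oncogene, was at 62.7, 82.2, 91.3, 65.6 and 69.1 CPM in livers. Aldafermin + MYC tumors held 352, 352, 297, 308 and 318 CPM, FGF19 + MYC tumors 285, 357, 394, 416 and 313 CPM, and sgTrp53 + MYC tumors 315, 382, 399, 391 and 486 CPM. The tumor groups overlapped with each other and not with livers. It was 4.57-fold (2.19 ± 0.14 SE, adjusted p = 5.1e-11, edgeR) and 5.32-fold (2.41 ± 0.15 SE, adjusted p = 6.3e-11, edgeR) above livers.

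Srsf7, a close relative of Srsf3, was 5.36-fold and 5.47-fold above livers, and Srsf2, an enhancer-binding SR protein, 3.60-fold and 3.58-fold. Srsf2 shares 67.6% of its exonic bases with Mfsd11 and Mettl23 on the opposite strand. Srsf10, which acts as a repressor when dephosphorylated, rose 3.17-fold and 3.92-fold. Srsf6, Srsf9 and Srsf11 rose 2.06-fold to 2.23-fold in the pooled tumors and 1.68-fold to 2.57-fold in sgTrp53 + MYC tumors. Srsf12, an SR protein of restricted expression, had 0 reads in every liver. Before TMM scaling this allows up to 0.14 CPM (3 counts, counting error only). The scaling raises that bound in livers, so it cannot be set directly against the scaled tumor levels. Srsf12 was at 0.224 to 0.774 CPM in Aldafermin + MYC, 0.0558 to 0.583 CPM in FGF19 + MYC and 0 to 0.585 CPM in sgTrp53 + MYC tumors, under the filter in all of them.

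Srsf5, an SR protein long known to be induced during liver regeneration, and Srsf4 did not follow the other SR genes. Srsf5 stood at 230, 280, 200, 151 and 167 CPM in livers and at 90.8, 77.9, 86, 102 and 106 CPM in FGF19 + MYC tumors. Aldafermin + MYC tumors held 232, 168, 121, 108 and 232 CPM and sgTrp53 + MYC tumors 142, 155, 185, 311 and 200 CPM. The FGF19 + MYC tumors lay below every liver and every other tumor, while Aldafermin + MYC and sgTrp53 + MYC tumors overlapped with livers. In the pooled tumors its log2 fold change was -0.71 ± 0.20 (SE, adjusted p = 0.00427, edgeR), which turned to 0.13 (adjusted p = 0.567) when libraries were scaled by size alone, a scaling that moved the median of all genes from 0.10 to 0.94. In sgTrp53 + MYC tumors it was -0.05 ± 0.24 (SE, adjusted p = 0.862).

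Exons of Srsf5 (chromosome 12 of GRCm39, 80986436 to 80997630) share 28.8% of their bases with genes on the opposite strand, among them Slc10a1, the bile acid uptake transporter of hepatocytes. Slc10a1 stood at 967 to 1360 CPM in livers and 44.9 to 184 CPM in tumors. The strand setting of the counting is not given in the sources used here, and the part of this overlap in the level of Srsf5 was not tested. Srsf4, a large SR protein, had log2 fold changes of -0.32 ± 0.16 (SE, adjusted p = 0.0856) in the pooled and -0.16 ± 0.19 (SE, adjusted p = 0.468) in sgTrp53 + MYC tumors, which library size alone turned to 0.54 and 0.75. In the pooled tumors 6 of 29 alternative fits called Srsf4 lower. Among these were DESeq2 (-0.39) and the fit without the 3 libraries (-0.22, adjusted p = 0.0228, edgeR).

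**Figure D4:**
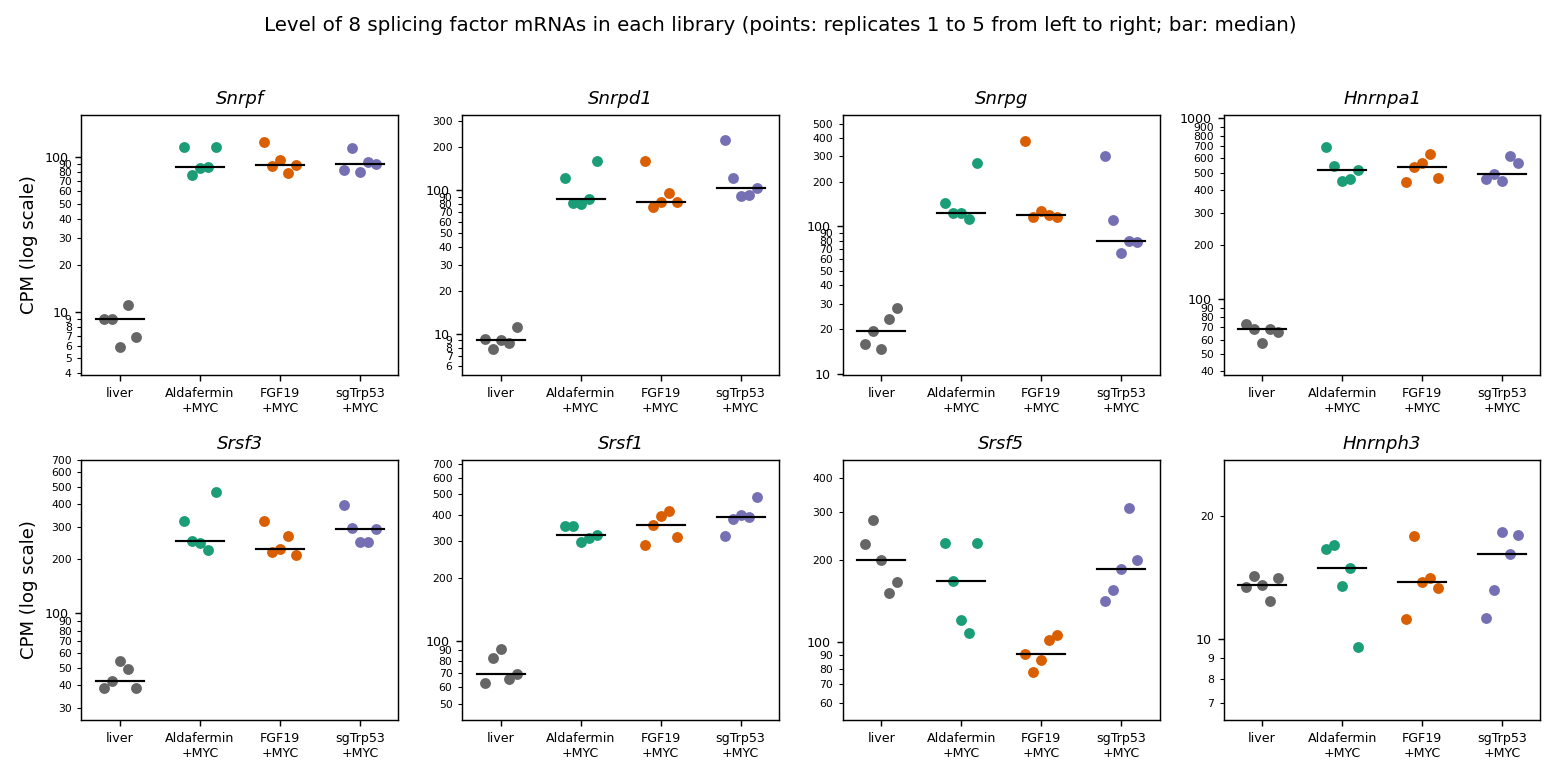
CPM (log scale) of 8 genes in each library, by group, with replicates from left to right and the median as a bar. Snrpf, Snrpd1, Snrpg, Hnrnpa1, Srsf3 and Srsf1 have all tumors above all livers, Srsf5 lies lowest in FGF19 + MYC tumors (77.9 to 106 CPM) and Hnrnph3 overlaps throughout.

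Among the hnRNP genes, 16 of 20 were higher in both tumor comparisons and 4 did not pass the test in either. Of all genes, 39.2% and 36.9% were higher. Hnrnpa1, a silencer of exons and a partner of PTB in the splicing of pyruvate kinase, stood at 73.4, 68.3, 57.6, 68.8 and 66 CPM in livers. Aldafermin + MYC tumors held 696, 546, 452, 464 and 521 CPM, FGF19 + MYC tumors 447, 537, 565, 638 and 465 CPM, and sgTrp53 + MYC tumors 464, 492, 449, 618 and 566 CPM. Every tumor was several times above every liver, and the tumor groups overlapped. It was 7.98-fold higher in the pooled tumors (3.00 ± 0.15 SE, adjusted p = 1.7e-12, edgeR) and 7.75-fold in sgTrp53 + MYC tumors (2.95 ± 0.16 SE, adjusted p = 6.6e-12, edgeR), and no other hnRNP gene passed 3.08-fold in the pooled or 4.11-fold in sgTrp53 + MYC tumors. The gene lies on chromosome 15 of GRCm39 at 103148339 to 103155125. Reads on its 13 counted copies came to 5.29% to 6.52% of its own in livers and to 5.27% to 7.43% in tumors.

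Behind Hnrnpa1 came Hnrnpab, an A/B-type protein, at 120 to 150 CPM in livers, 344 to 485 CPM in the pooled tumors and 418 to 655 CPM in sgTrp53 + MYC tumors (3.08-fold and 4.11-fold). Hnrnpu, a nuclear scaffold protein, and Hnrnpm were 3.06-fold and 3.05-fold higher in the pooled tumors and 3.94-fold and 3.67-fold higher in sgTrp53 + MYC tumors. Hnrnph1, a binder of G-rich elements, rose 3.03-fold and 3.51-fold with the smallest errors of the family (0.10 and 0.11 SE, log2 scale). Hnrnpk, a poly(C) binder, was the least changed of those called in the pooled tumors, at 242 to 273 CPM in livers and 404 to 679 CPM in these tumors (1.93-fold, adjusted p = 2.5e-06, edgeR).

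The other members called were Hnrnpa0, Hnrnpa2b1, Hnrnpa3, Hnrnpc, Hnrnpd, Hnrnpdl, Hnrnpf, Hnrnpl, Hnrnpll and Hnrnpr, with folds of 1.98 to 2.74 in the pooled tumors and 2.08 to 3.68 in sgTrp53 + MYC tumors. Hnrnpa3 is the least certain of them: 33 copies of 90% identity or more lie in the genome, and reads on the 31 with a row came to 26.9% to 56.7% of its own. Adding the reads of the copies to their parent genes changed no count of calls in any of the 4 comparisons.

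The exceptions differed in kind. Hnrnph3, a truncated relative of Hnrnph1, stood at 12.4 to 14.3 CPM in livers, 9.57 to 17.8 CPM in the pooled tumors and 11.3 to 18.2 CPM in sgTrp53 + MYC tumors (log2 fold changes 0.07 and 0.18, adjusted p = 0.703 and 0.367, edgeR). Hnrnph2, the X-linked relative, was at 0.24 ± 0.13 SE and 0.21 ± 0.15 SE on the log2 scale. The U-like genes Hnrnpul1 and Hnrnpul2 were at 0.29 and 0.11 in the pooled and 0.35 and 0.47 in sgTrp53 + MYC tumors. Without the 3 libraries all 4 passed the test in sgTrp53 + MYC tumors, with log2 fold changes of 0.31, 0.34, 0.56 and 0.68, and all but Hnrnph3 (0.15, adjusted p = 0.214) in the pooled tumors. In these fits 40% and 41.1% of all genes were higher.

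Genes that act beside the members were counted in the same way, against 39.2% of all genes higher and 34.5% lower in the pooled tumors. Of 11 assembly factors that load Sm proteins onto RNA, 9 were higher, among them Prmt5 (8.98-fold), its cofactor Wdr77 (4.06-fold), Smn1 (5.73-fold) and Gemin6 (11.3-fold), while Gemin2 and Gemin7 did not pass (log2 fold changes 0.16 and 0.03). Of 10 LSM genes, whose products form rings on U6 RNA, mRNA or, for Lsm10 and Lsm11, U7 RNA, 9 were higher and Lsm10 was lower (-0.74 ± 0.15 SE, adjusted p = 0.000231, edgeR). Of 30 other U snRNP and SF3 genes, 27 were higher and 0 lower. The kinases of SR proteins were mixed: Srpk1 (4.80-fold) and Clk2 (1.54-fold) were higher, Clk3 and Clk4 lower (-0.40 and -0.35), and Srpk2 and Clk1 not called (0.09 and -0.32). Of 29 other splicing regulators tested, 19 were higher and 3 lower, and those lower were Esrp2, Celf2 and Mbnl2 (-0.70, -0.94 and -0.42).

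In sgTrp53 + MYC tumors the counts were 9 higher and 0 lower for the assembly factors, 9 and 1 for the LSM genes, 27 and 0 for the other U snRNP and SF3 genes, 3 and 1 of 6 for the kinases and 19 and 2 for the other regulators, against 36.9% and 33% of all genes. These counts, in the same order, were without the 3 libraries 9 and 1, 9 and 1, 27 and 0, 3 and 1, and 24 and 2, and in the pool 9 and 0, 9 and 1, 28 and 0, 2 and 3 (Clk1 now lower, at -0.47), and 21 and 3. The shares of all genes in these fits were 40% higher and 34.8% lower in sgTrp53 + MYC tumors and 41.1% and 37.3% in the pool. Both comparisons use the same livers.

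The next comparison set the tumors with FGF19 or Aldafermin against sgTrp53 + MYC tumors, to ask whether splicing genes differed between tumors that all carry MYC. Of 42 members, the pool had 2 above and 5 below, where 11.6% of all genes were higher and 12.1% lower. The 7 of 42 called thus stand against 23.7% of all genes that changed, and are no more than this background. The count moved with single libraries, to 2 without sgTrp53 + MYC 5 (17.5% of all genes) and to 12 without sgTrp53 + MYC 1 (25.4%). It was 4 without Aldafermin + MYC 3 (1497 higher and 1511 lower of 14234 genes). It was also 4 without FGF19 + MYC 5 (1500 and 1540 of 14282 genes) or sgTrp53 + MYC 4 (1553 and 1565 of 14284 genes). With the replicate number as a block it was 4 (21.8% of all genes). In none of the 7 did the groups separate, as they did for 5.7% of all genes. The median log2 fold change was -0.18 over the members and -0.02 over all genes. Depth, ambiguous reads and table differ between these groups, and cannot be told apart from the tumor type.

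Snrpb was higher in the pooled tumors, at 237 to 375 CPM against 177 to 251 CPM (log2 fold change 0.45 ± 0.12 SE, adjusted p = 0.0132, edgeR), as was Srsf9, at 50.6 to 61 CPM against 35.4 to 59.6 CPM (0.34 ± 0.12 SE, adjusted p = 0.0401, edgeR). Srsf9 shares 46.3% of its exonic bases with Gatc on the opposite strand. In both, 1 sgTrp53 + MYC library reached into the range of the pooled tumors. Of 28 alternative fits, 27 kept the call of Snrpb and 10 that of Srsf9.

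The 5 lower members were Srsf5 (-0.66 ± 0.20 SE, adjusted p = 0.0254, edgeR), Hnrnpab (-0.42 ± 0.12 SE, adjusted p = 0.0161), Hnrnpll, a regulator of alternative splicing in T cells (-0.36 ± 0.11 SE, adjusted p = 0.0246), Hnrnpr (-0.36 ± 0.12 SE, adjusted p = 0.0314) and Srsf10 (-0.31 ± 0.11 SE, adjusted p = 0.0459). With an adjustment for GC content and exon length, Srsf10 turned to 0.10 (adjusted p = 0.545). Of 28 alternative fits, the call held in 27 for Hnrnpab, 26 for Hnrnpll, 25 for Srsf5, 20 for Hnrnpr and 14 for Srsf10. Hnrnpr stood at 61.1 to 89.9 CPM in the pooled tumors and at 66.3, 81.7, 97.6, 110 and 108 CPM in sgTrp53 + MYC tumors, where replicate 1, the library in which short genes stood higher, was the lowest. Of the 20 HNRNP genes, 16 had a negative and 4 a positive log2 fold change, with a median of -0.26. Of the 12 SNRP genes, 7 were positive and 5 negative.

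This comparison moved most with the libraries. Without the 3 libraries 19 members passed, 3 higher (Snrpb 0.39, Snrpd2 0.53 and Snrpg 0.50) and 16 lower, of which 12 were HNRNP and 4 SRSF genes, against 13.3% of all genes higher and 18.6% lower. The lower ones had log2 fold changes between -0.87 (Srsf5) and -0.24, and 6 of the 7 calls made with all libraries were among the 19. Srsf9 was not, at 0.27 (adjusted p = 0.114). The adjustment of all libraries for GC content and exon length gave 4 calls (21.2% of all genes), of which 2 were among the 7.

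**Figure D5:**
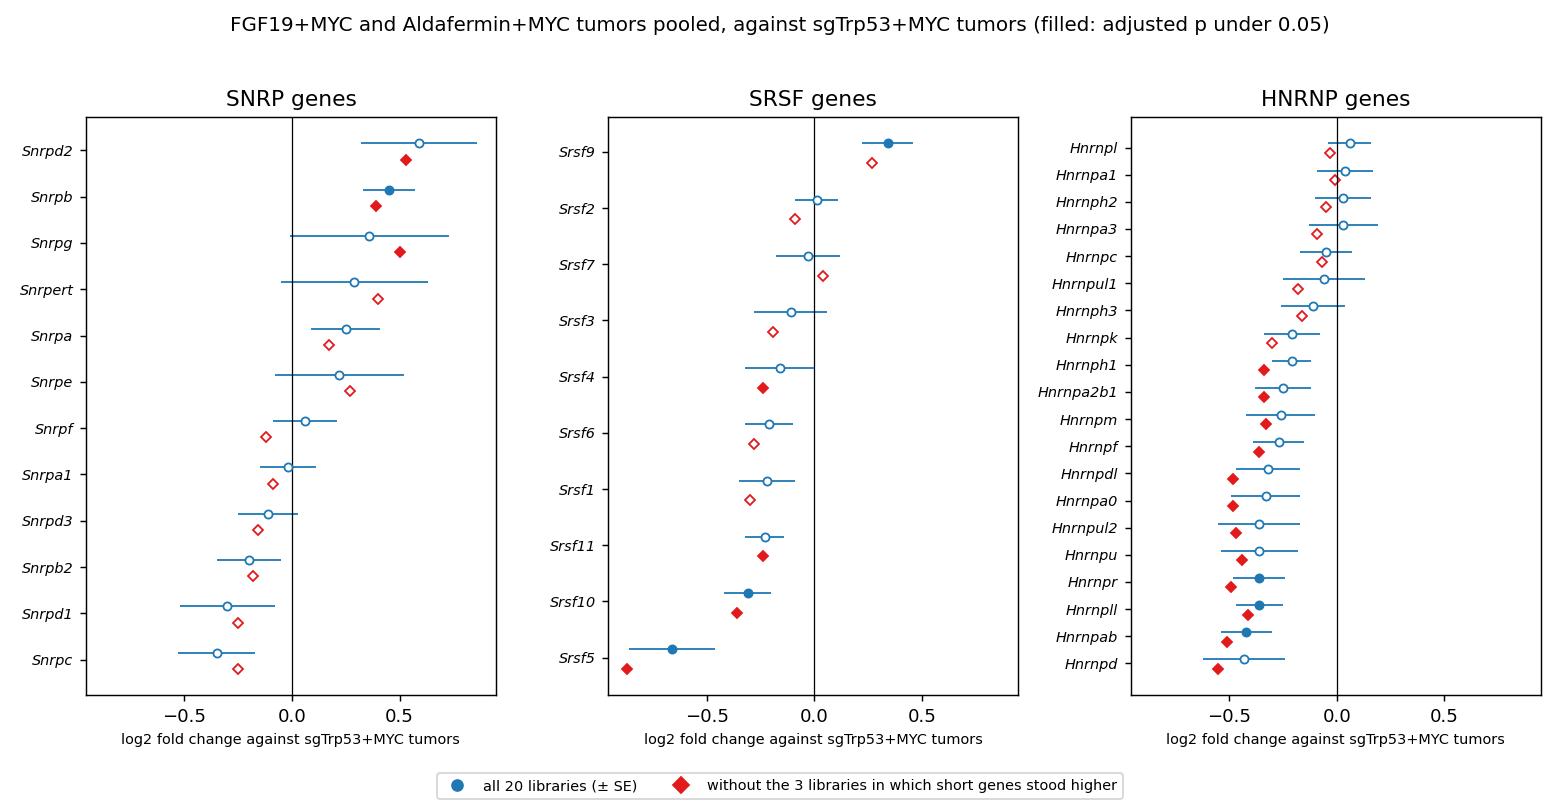
Log2 fold change of the 42 genes between the pool of tumors with FGF19 or Aldafermin and sgTrp53 + MYC tumors, with all 20 libraries (circles, ± SE) and without the 3 libraries in which short genes stood higher (diamonds). Filled symbols have an adjusted p under 0.05, 7 with all libraries and 19 without the 3.

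The last comparison asked whether tumors driven by Aldafermin differed from those driven by FGF19, proteins that differ by the changed N-terminus, both expressed from plasmids with the same MYC transgene. No member passed (0 of 42, edgeR, with an unadjusted p under 0.05 for 2), as 0% of all genes did, and DESeq2 and the likelihood ratio test called 0 members too, while they called 0.67% and 0.412% of all genes. Log2 fold changes (Aldafermin + MYC over FGF19 + MYC) ran from -0.24 for Srsf10 to 0.90 for Srsf5, with a median of 0.03 over the members and 0.02 over all genes. For 40 of the 42 the 95% interval lay inside ±1, which bounds a difference at 2-fold for these genes and does not show that the tumors were alike. The exceptions were Snrpg (-1.04 to 0.73) and Srsf5.

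Srsf5 was the only member whose groups separated, as they did for 1.46% of all genes: the lowest Aldafermin + MYC tumor held 108 CPM and the highest FGF19 + MYC tumor 106 CPM. Its log2 fold change was 0.90 ± 0.24 (SE, 95% interval 0.38 to 1.41), with an adjusted p of 0.262 over all genes (edgeR). Without the 3 libraries it was 0.72 (adjusted p = 0.357). Hnrnpdl, the other member with an unadjusted p under 0.05, was at 0.38 ± 0.17 (SE, adjusted p = 0.655), and its highest value, 206 CPM, came from Aldafermin + MYC 5. Of the genes far above livers, Snrpf differed between these tumors by 0.02 ± 0.17 SE, Hnrnpa1 by 0.01 ± 0.15 SE and Srsf1 by -0.12 ± 0.15 SE on the log2 scale.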

How the data were processed

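The authors made stranded mRNA libraries from individual nodules or livers, sequenced 150 base paired ends, called reads with bcl2fastq 2.20.0.422, aligned them with HISAT2 to mm39 and counted them per RefSeq gene with htseq-count. The deposited values are these raw counts, in 2 tables, with 5 summary lines (33.7% to 56.2% of all reads) that were left out here. Titles number the replicates, and the mice were independent. Libraries of a group differed by more than counting noise (chi-square over its degrees of freedom at least 13.9).

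Counts were tested in R 4.3.3 with edgeR 4.0.16: at least 1 CPM in at least 5 libraries, TMM, one quasi-likelihood model of the 4 groups and Benjamini-Hochberg adjustment over 14333 genes, threshold 0.05. SE is the log2 fold change over the root of F. The test was run on simulated counts that held no shift of short against long genes between libraries, so it was not checked against such shifts. DESeq2 1.42.0 and other scalings, filters, models and left-out libraries were alternatives, 2 of them added after seeing the data (leaving out 3 libraries, adding copies). The members and lists were chosen with earlier results of these data known. Genes named were the Sm ring and 4 well known members (Srsf1, Srsf3, Hnrnpa1 and Hnrnpk). To these came, per family and comparison, the 2 members at each end of the log2 fold changes. The top and bottom member of each other splicing list were also chosen, but the text above does not name all of these. Others were named to account for every member. Copies at 90% identity or more over at least 50% of the coding sequence were found with blastn 2.17.0. Positions, exon lengths and overlaps are GENCODE M39 on GRCm39.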

Additional observations from a re-analysis of the deposited data

Results flagged for a closer look

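In a group of 5 libraries, a library was listed when its gap to the nearest other exceeded 0.71 of the range of the group. Chance alone gives this in about 1 of 20 groups, and 21 of 124 groups of the genes named by the rule met it, 17 of them through Aldafermin + MYC 5, FGF19 + MYC 1 or sgTrp53 + MYC 1, the libraries in which short genes stood higher.

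Values that stood above the rest of the group were, in Aldafermin + MYC 5, Snrpe at 166 CPM, Snrpert at 22.3 CPM, Snrpg at 268 CPM and Srsf10 at 108 CPM. In FGF19 + MYC 1 they were Snrpc at 93.2 CPM, Snrpd1 at 159 CPM, Snrpd2 at 308 CPM, Snrpd3 at 157 CPM, Snrpe at 173 CPM, Snrpert at 22.9 CPM and Snrpg at 382 CPM. In sgTrp53 + MYC 1 they were Snrpd1 at 222 CPM, Snrpert at 21.3 CPM, Snrpg at 301 CPM and Srsf7 at 254 CPM. Below the rest stood Hnrnpul2 at 77.4 CPM in Aldafermin + MYC 5 and Srsf2 at 364 CPM in FGF19 + MYC 1, where the other 4 libraries lay between 379 and 382 CPM.

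Outside these libraries, Srsf9 was high in sgTrp53 + MYC 2 (59.6 CPM) and Snrpd3 in liver 4 (49.6 CPM), while Hnrnpl was low in liver 5 (118 CPM) and Srsf11 in liver 4 (45.3 CPM).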

How the results depend on the processing

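The counts of members changed against livers stayed within 1.5 times of the main count under every alternative run: leaving out 1 library gave 37 to 39 (main 37) for the pooled tumors and 36 to 38 (main 36) for sgTrp53 + MYC tumors, and Aldafermin + MYC against FGF19 + MYC gave 0 throughout. The fit with 39, without Aldafermin + MYC 5, had 5910 higher and 4760 lower of 14273 genes. The fit with 38 for sgTrp53 + MYC tumors, without sgTrp53 + MYC 1, had 5279 higher and 4742 lower of 14282 genes. Pooled against sgTrp53 + MYC tumors (main 7, beside 23.7% of all genes) gave 2 to 12 when 1 library was left out. It gave 4 without Aldafermin + MYC 3, FGF19 + MYC 5 or sgTrp53 + MYC 4, with the counts of all genes given above. Without sgTrp53 + MYC 5 it gave 2 (17.5% of all genes) and without sgTrp53 + MYC 1 it gave 12 (25.4%). With GC content and length offsets it gave 4 (21.2% of all genes). Without the 3 libraries in which short genes stood higher it gave 19 (13.3% of all genes higher and 18.6% lower). With the replicate number as a block it gave 4 (1 higher, 3 lower, beside 21.8% of all genes), and the block changed no other count. The numbers do not pair mice: of 30 same-number pairs, 6 had correlated deviations over 0.1 and 7 matched best with their own number. The cause of these moves was not tested.

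The log2 fold changes of 4 members turned sign, those of Hnrnph3, Srsf4, Srsf5 and Srsf10, of which Srsf5 in the pooled tumors (-0.71) and Srsf10 (-0.31) had passed the test. Against livers, in the pooled tumors, Hnrnph3 went to 0 with DESeq2 and with RLE size factors, and with library size alone Srsf4 went to 0.54 and Srsf5 to 0.13. In sgTrp53 + MYC tumors, Hnrnph3 went to -0.05 with GC content and length offsets, Srsf4 to 0.75 (library size alone), 0.12 (no filter) and 0.02 (without the 3 libraries), and Srsf5 to 0.84 (library size alone), 0.24 (no filter), 0.08 (only the groups compared, and without the 3 libraries), 0.07 (without liver 2), 0.05 (without sgTrp53 + MYC 1) and 0.03 (without sgTrp53 + MYC 2), with a range of -0.27 (without sgTrp53 + MYC 4) to 0.07 over the fits that left out 1 library. Srsf10 in pooled against sgTrp53 + MYC tumors went to 0.10 with GC content and length offsets.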
